A study of Mus musculus with 15 samples.

Results

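Bone marrow-derived macrophages (BMDMs) stimulated for 24 h with LPS and IFNγ together (LPS/IFNγ) were compared with BMDMs given PBS. The comparison took the 3 LPS/IFNγ samples and the 3 PBS samples by their labels, that is 6 of the 15 samples of the study, and protein-coding genes were the main set, 13025 of them with enough counts to be tested. The cells came from wild-type female C57BL/6NTac mice aged 8 to 10 weeks. Bone marrow was grown into macrophages in medium with M-CSF, and the macrophages of 5 mice were combined and re-seeded in medium with 1% serum before stimulation. The LPS/IFNγ samples received LPS-EK, an endotoxin of *Escherichia coli*, and 20 ng/mL of recombinant IFNγ. The concentration of LPS in this mixture was 100 ng/mL in the study's methods and the labels' protocol, but 1 µg/mL in the treatment field. The 3 samples given LPS alone received 1 µg/mL. The PBS samples received buffer alone and carried no other agent, and no group carried an altered gene. Because all samples were wells of one pool of cells, they were technical replicates, and every SE and adjusted p below covers the spread between wells and sequencing libraries and not the spread between mice.

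LPS is bound by MD-2 and CD14 and recognised by TLR4, which signals through the adaptors MyD88 and TRIF to NF-κB and to IRF3. IRF3 switches on interferon-β, which acts back on the same cell through its receptor and the interferon-stimulated response element (ISRE). IFNγ, a product of T cells and NK cells, binds a receptor of its own and acts on genes through gamma-activated sites (GAS) in DNA. The pair of signals is the classical way of producing pro-inflammatory (M1) macrophages, which make nitric oxide, interleukin-12 and chemokines that attract T cells.

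The 6 sequencing libraries held 45497806 to 80925478 counted reads. The 3 LPS/IFNγ libraries correlated with each other at a Pearson's r of 0.991 to 0.992 across protein-coding genes (log2 of normalized counts + 1, genes not being independent), and so did PBS replicates 1 and 2 (r = 0.993). PBS replicate 3 stood apart, with r = 0.940 and 0.935 to the other PBS libraries. Its departure followed the length of the gene. Among the 190 genes under 1000 bases of exon that averaged 100 or more normalized counts, PBS 3 was a median of 1.79 log2 units above the mean of PBS 1 and 2, and among the 1054 genes of 10000 bases or more it was 1.06 log2 units below it (median difference -1.06). The same medians for PBS 1 minus PBS 2 were 0.11 and -0.08. Ribosomal protein genes, which are short, held 5.98% of all counts in PBS 3 against 1.91% and 1.81% in PBS 1 and 2 and 1.25% to 1.30% in LPS/IFNγ. What made this library differ was not tested. PBS 3 stayed in the comparison, and the counts of each gene list other than markers of other cell types are also given with PBS 1 and 2 alone.

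**Figure D1:**
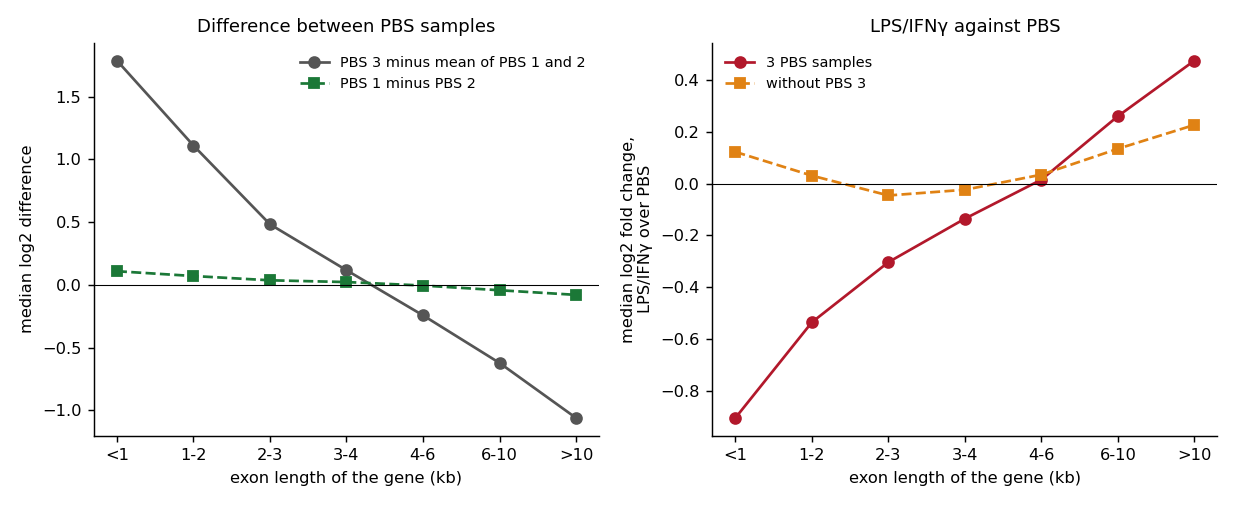
Median differences in classes of exon length (kilobases, x axis) over protein-coding genes that averaged 100 or more normalized counts. Left, log2 difference of PBS 3 from the mean of PBS 1 and 2 (circles) and of PBS 1 from PBS 2 (squares); right, Log2FoldChange of LPS/IFNγ over PBS with the 3 PBS samples (circles) and without PBS 3 (squares). PBS 3 runs from 1.79 for the shortest genes to -1.06 for the longest, and the median Log2FoldChange of the shortest genes moves from -0.90 to 0.12 when PBS 3 is left out.

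Most of the protein-coding genes tested were called higher or lower in LPS/IFNγ than in PBS when all 15 libraries were fitted together. Of the 13025 genes, 4101 rose (31.5%) and 4601 fell (35.3%) by edgeR's quasi-likelihood test (Benjamini-Hochberg adjusted p, threshold 0.05). Without PBS 3, 4783 of 13196 rose (36.2%) and 5267 fell (39.9%); 4048 of the 4101 rises and 4336 of the 4601 falls were called in both fits, and 0 genes were called in opposite directions. Fewer genes were called when the 6 libraries were fitted alone (3462 higher and 3083 lower) or a fold change above 2 was tested (2186 and 1974). Among the calls with all 15 libraries, the rises were larger than the falls. The called rises had a median Log2FoldChange of 1.55 and the called falls one of -1.31, 249 called genes lay at 6 or above and 20 at -6 or below, and 50 lay at 10 or above and 0 at -10 or below. With the study's own criterion, a Log2FoldChange beyond 2 in either direction and no p, 1599 genes (12.3%) lay above 2 and 1233 (9.47%) below -2. Genes that rose held 19.3% to 28.4% of all counts in the PBS libraries and 64.8% to 65.0% in the LPS/IFNγ libraries. They were chosen by their rise in these same libraries, so the direction of that difference was given by the choice. Normalized counts did not overlap between the groups for 8981 genes (69.0%). The median Log2FoldChange of all 13025 genes was -0.12, and list medians below are to be read against that value. Counts of list members called are to be read against 31.5% and 35.3%, or 36.2% and 39.9% without PBS 3.

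**Figure D2:**
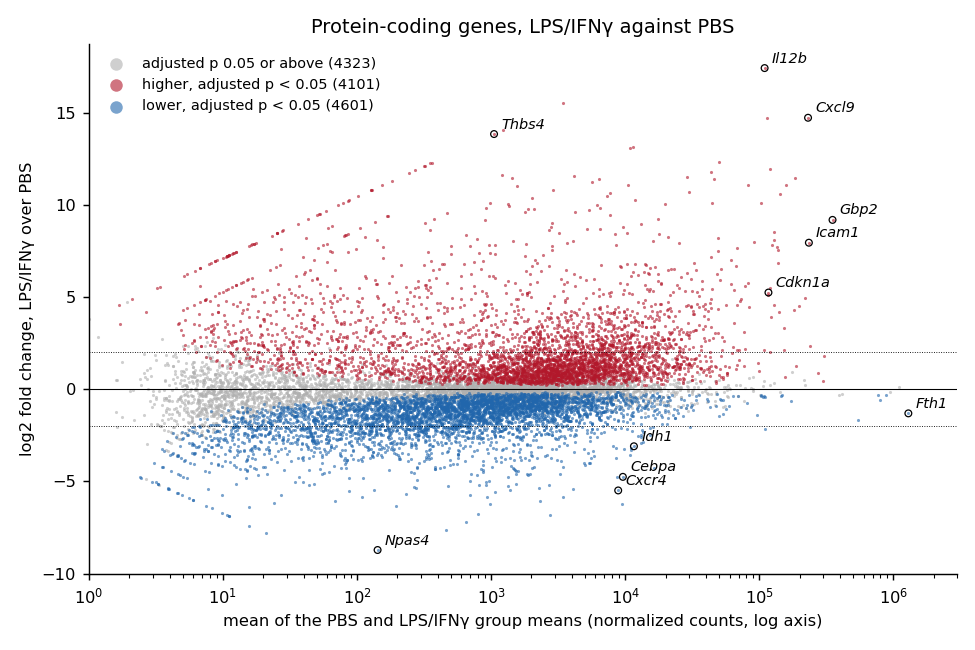
Log2FoldChange of LPS/IFNγ over PBS (y axis) against the mean of both group means in normalized counts (log x axis), one point for each of the 13025 protein-coding genes, red for the 4101 called higher, blue for the 4601 called lower and grey for the rest, with dotted lines at 2 and -2. The fitted values reach 17.41 (*Il12b*) and -8.73 (*Npas4*). The oblique lines of points at the left come from genes with 0 or very few counts in one group.

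The largest rises belonged to cytokines, a chemokine and an effector enzyme that PBS-treated cells hardly expressed. *Il12b* (chr11:44400063-44414033), which encodes the p40 subunit of interleukin-12, had 3.23, 0 and 0 normalized counts in PBS and 228643, 211779 and 216360.5 in LPS/IFNγ. The 3 PBS libraries held 5 reads of it in all, and its ratio to PBS was 174414 (95% interval 74738 to 537162), an interval that covers counting error only. *Il12a*, which encodes the partner subunit p35, was at 0, 0 and 0 in PBS and at 6586, 6856 and 7024 in LPS/IFNγ, at least 9078-fold higher than 3 counts over the 3 PBS libraries would give. No PBS library came near the LPS/IFNγ libraries for either subunit. *Cxcl9* (chr5:92321347-92328079), a chemokine that attracts T cells through CXCR3, rose from 18.1, 23.3 and 4.69 to 464495, 448815 and 471211 normalized counts (Log2FoldChange 14.72 ± 0.20 (SE), edgeR adjusted p = 9.7e-11). *Nos2* (chr11:78920787-78960254), the inducible nitric oxide synthase, rose from 9.70, 5.68 and 11.7 to 227012, 231907 and 229538 (Log2FoldChange 14.71 ± 0.26 (SE), edgeR adjusted p = 8.6e-11). Both genes were thus near the floor in every PBS library and among the most counted genes after stimulation.

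The other 6 of the 10 largest rises were *Il6*, *Il27*, *Serpina3f*, *Lad1*, *Thbs4* and *Steap4*. *Il6*, a pyrogenic cytokine, had 1.29, 0 and 9.37 normalized counts in PBS and 23039, 22898 and 23124 in LPS/IFNγ (ratio 9178 (95% interval 4990.3 to 19140.0)). *Il27*, which encodes the p28 subunit of interleukin-27, had 14.9, 12.6 and 35.1 normalized counts in PBS and 97258, 98709 and 103944 in LPS/IFNγ (Log2FoldChange 12.33 ± 0.29 (SE), edgeR adjusted p = 2e-11). *Serpina3f*, a serine protease inhibitor of a mouse gene cluster with close copies, had 3.88, 2.52 and 0 normalized counts in PBS and 22079, 21169 and 21608 in LPS/IFNγ (ratio 8617 (95% interval 4685 to 17969.6)). The highest PBS value among the 3 genes was 35.1. Only genes whose groups did not overlap could enter the 10 largest rises. *Lad1*, a protein of basement membranes, *Thbs4*, a matricellular thrombospondin, and *Steap4*, a metalloreductase, had 0 counts in the 3 PBS libraries and means that were at least 3281-, 2797- and 962-fold above the floor in LPS/IFNγ. In all, 23 protein-coding genes had 0 counts in the 3 PBS libraries and averaged 100 or more normalized counts in LPS/IFNγ, with lower bounds of 133- to 9078-fold; they included *Il33*, *Slamf1*, *Sele*, *Klrk1*, *Cd247* and *Btla*, several of which are best known from lymphocytes or endothelium. No protein-coding gene showed the reverse, 0 counts in LPS/IFNγ with a mean of at least 100 in PBS.

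The largest falls were smaller and of another kind, with transcription factors, surface receptors and enzymes among them. *Npas4* (chr19:4984355-4990316), a transcription factor known from neurons, had 328, 225 and 299 normalized counts in PBS and 2.12, 0 and 0 in LPS/IFNγ, a ratio of PBS to LPS/IFNγ of 419.7 (95% interval 116 to 3469.8). *Lpar5*, a receptor for lysophosphatidic acid, had 1314, 1339 and 118 normalized counts in PBS and 1.06, 6.31 and 6.40 in LPS/IFNγ (Log2FoldChange -7.64 ± 0.74 (SE), edgeR adjusted p = 6.6e-06), and PBS 3 lay well below the other PBS libraries. *Cd300lb*, an activating receptor of myeloid cells, fell from 23538, 23247 and 9372 to 297, 225 and 213 (Log2FoldChange -6.26 ± 0.29 (SE), edgeR adjusted p = 3.9e-09). *Lyl1*, a haematopoietic transcription factor, fell from 3311, 2985 and 7325 to 81.7, 61.0 and 61.2 (Log2FoldChange -6.06 ± 0.31 (SE), edgeR adjusted p = 2.4e-09). For each of these genes the lowest PBS value exceeded the highest LPS/IFNγ value, as the choice of the falls required. The remaining falls of the first 10 were *Galnt9*, a glycosyltransferase (-7.20), *Engase*, which releases N-glycans (-6.83), *Bmf*, a pro-apoptotic BH3-only protein (-6.75), *Frat1*, an inhibitor of GSK3 (-6.32), *Fam214a* (-6.22) and *Arhgap19*, a GTPase-activating protein (-5.88). The highest edgeR adjusted p among these 6 was 6.6e-07, for *Frat1*. Without PBS 3 their Log2FoldChanges lay between -5.98 (*Frat1*) and -7.12 (*Galnt9*).

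**Figure D3:**
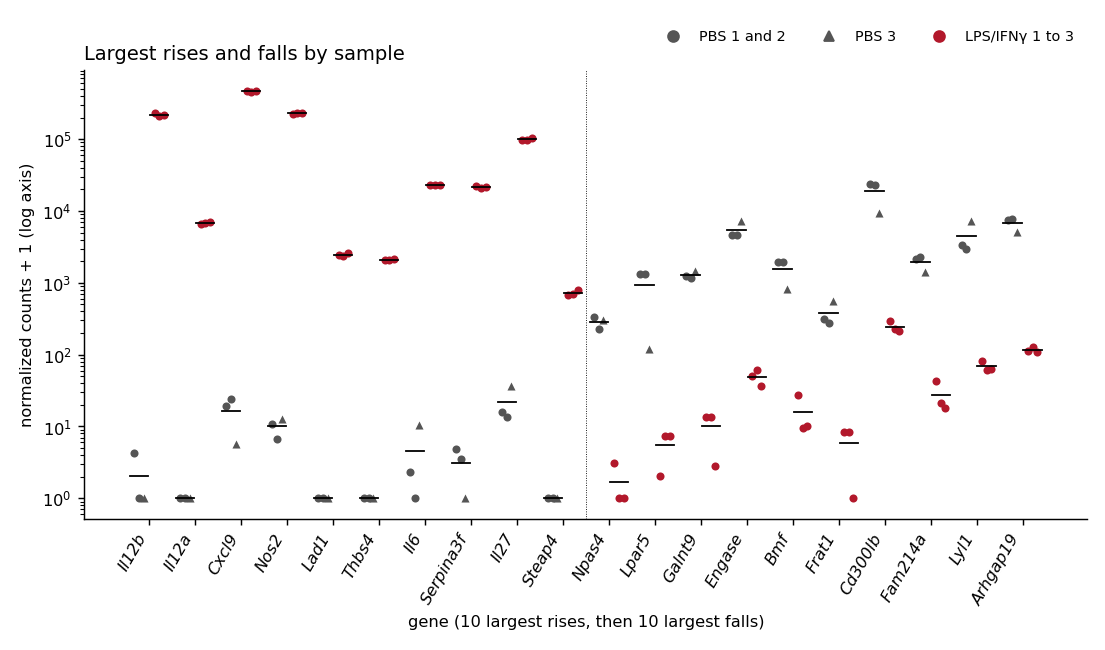
Normalized counts + 1 (log y axis) in each PBS sample (grey, PBS 3 as a triangle) and each LPS/IFNγ sample (red) for the 10 largest rises (left) and the 10 largest falls (right), with group means as bars. The groups do not overlap for any of the 20 genes, which was a condition of their choice. PBS 3 lies away from PBS 1 and 2 for genes such as *Lpar5*.

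Cytokines and chemokines, the messages that macrophages send to other immune cells, mostly rose. All 21 inflammatory cytokines tested rose (median Log2FoldChange 8.46, or 6.67 with the 6 members that had 0 counts in PBS at their lower bound; without PBS 3, 21 rose). *Tnf* had 658, 622 and 839 normalized counts in PBS and 251098, 260337 and 262076 in LPS/IFNγ. *Il1b* had 33.0, 42.3 and 30.5 normalized counts in PBS and 58672, 59667 and 60272 in LPS/IFNγ. Both alarm cytokines of innate immunity rose by 8.52 ± 0.11 and 10.70 ± 0.18 (SE) on the log2 scale (edgeR adjusted p = 9e-14 and 6.7e-13). *Ifnb1*, which encodes interferon-β, rose by 11.03 ± 0.61 (edgeR adjusted p = 2.8e-10), and *Il33*, an alarmin of the interleukin-1 family, was at 0, 0 and 0 in PBS and 732, 658 and 706 in LPS/IFNγ. Of 23 chemokines, 19 rose and 1 fell (median 5.12; without PBS 3, 20 and 1, median 6.30). *Cxcl11* and *Cxcl10*, which share the receptor of *Cxcl9*, rose as well. *Cxcl10* had 127, 335 and 98.4 normalized counts in PBS and 279861, 278488 and 291244 in LPS/IFNγ. *Cxcl11*, which the annotation holds to be a polymorphic pseudogene in this reference, had 0, 1.26 and 0 normalized counts in PBS and 5974, 5700.5 and 6114 in LPS/IFNγ (ratio 11835 (95% interval 3276 to 97736)). The chemokine that fell was *Cxcl14* (-0.92, edgeR adjusted p = 0.0002), and *Ccl22*, a ligand of CCR4, rose from 11.6, 12.6 and 4.69 to 15312, 14300.1 and 14547.

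Several inhibitors of these signals rose. *Il1rn*, the secreted antagonist of the interleukin-1 receptor, reached 252419, 257539 and 264434 normalized counts from 1043, 1006 and 781 in PBS (Log2FoldChange 8.09 ± 0.17 (SE), edgeR adjusted p = 6.2e-12). *Il10*, the main anti-inflammatory cytokine of macrophages, had 42.7, 23.3 and 16.4 normalized counts in PBS and 418, 398 and 268 in LPS/IFNγ (Log2FoldChange 3.68 ± 0.31 (SE), edgeR adjusted p = 3.8e-07). Among 10 inhibitory cytokines and receptors 6 rose and 1 fell (without PBS 3, 6 and 3), and the receptor chains *Il4ra* and *Il10ra* rose by 3.11 ± 0.06 and 2.73 ± 0.06. Receptors for chemoattractants divided: 11 of 17 rose and 4 fell (without PBS 3, 11 and 5). *Fpr2*, a receptor for formylated peptides, rose by 9.18 ± 0.47, whereas *Cxcr4* (chr1:128588199-128592293), which holds cells in the bone marrow, fell from 17595, 16677 and 17749 to 371, 406 and 377 (Log2FoldChange -5.49 ± 0.10 (SE), edgeR adjusted p = 4e-13), and *Cx3cr1* fell from 183, 201 and 254 to 1.06, 10.5 and 11.0.

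The interferon-inducible GTPases and the antiviral genes rose without exception. The GTPases comprise the guanylate-binding proteins (GBPs) and the immunity-related GTPases, which attack the vacuoles of intracellular microbes. All 19 members tested rose (median 8.36; without PBS 3, 19 rose). *Iigp1* had 56.2, 25.2 and 18.7 normalized counts in PBS and 93555, 91062 and 92523 in LPS/IFNγ, and *Gbp5*, which also assists the NLRP3 inflammasome, had 131, 245 and 64.4 normalized counts in PBS and 312432, 321767 and 319258 in LPS/IFNγ. *Gbp2* went from 1380.3, 1324 and 916 to 706647, 689306 and 708351 (Log2FoldChange 9.18 ± 0.15 (SE), edgeR adjusted p = 1.5e-12). *Gbp4* and *Tgtp1* rose by 11.09 ± 0.53 and 9.62 ± 0.36. These families have near-identical copies in the mouse, such as *Tgtp1* and *Tgtp2*, and no source used here says how reads shared by copies were assigned. Of the antiviral interferon-stimulated genes, 32 of 32 rose (median 5.08; without PBS 3 32, median 4.99). *Rsad2* (viperin) reached 229405, 249439.8 and 261397 normalized counts from 899, 1461 and 901, and *Oasl1*, *Mx1* and *Cmpk2* rose by 9.25 ± 0.15, 8.25 ± 0.30 and 8.01 ± 0.30.

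Promoter letters were compared with these groups as a description. The bases before the start of each gene, 250 of them in RefSeq's promoters on GRCm38.p6, were searched on both strands for an ISRE (TTTC, 2 bases of any kind, TTTC), a GAS (TTC, 3 bases of any kind, GAA), an NF-κB site (GGGA, 2 bases of any kind, TTCC) and an E2F site (TTTCCCGC or TTTGGCGC). A promoter was at hand for 10248 of the 13025 protein-coding genes tested, of which 3.50% held an ISRE, 7.30% a GAS, 1.52% an NF-κB site and 2.83% an E2F site. Among all 32851 promoters of the table these shares were 2.98%, 7.02%, 1.21% and 1.30%. Of the 77 promoters found for the 100 largest rises, 16 held an ISRE (20.8%), 14 a GAS (18.2%) and 7 an NF-κB site (9.09%). Of the 79 found for the 100 largest falls, 1 held an ISRE (1.27%), 3 a GAS (3.80%) and 0 an NF-κB site. The GTPases had an ISRE in 10 of 11 promoters and a GAS in 6, and the antiviral genes an ISRE in 10 of 24. Chemokines had an NF-κB site in 4 of 15 promoters, and the DNA replication genes described further on an E2F site in 7 of 35. Inflammatory cytokines had an ISRE in 1 of 16 promoters, a GAS in 1 and an NF-κB site in 3. Genes for NF-κB subunits and their inhibitors had an ISRE in 0 of 16, a GAS in 3 and an NF-κB site in 2. An E2F site lay in 2.60% of the promoters of the largest rises and 3.80% of those of the largest falls. No test was made of these shares, and a match is not evidence that a factor was bound.

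The promoters of 4 genes with large rises show how the motifs lay, in lower case with the motifs in capitals and read 5′ to 3′ on the strand of the gene, the last base being the one before the start. That of *Gbp5* (+ strand, chr3:142496684-142496933) held an ISRE from 165 to 156 bases before the start, GAS from 245 to 237 and from 52 to 44, and an NF-κB site from 77 to 68. That of *Gbp2* (+ strand, chr3:142620413-142620662) held an ISRE from 59 to 50. That of *Cxcl10* (- strand, chr5:92348890-92349139) held an ISRE from 213 to 204 and an NF-κB site from 159 to 150, and that of *Il6* (+ strand, chr5:30012864-30013113) an NF-κB site from 44 to 35.
Gbp5: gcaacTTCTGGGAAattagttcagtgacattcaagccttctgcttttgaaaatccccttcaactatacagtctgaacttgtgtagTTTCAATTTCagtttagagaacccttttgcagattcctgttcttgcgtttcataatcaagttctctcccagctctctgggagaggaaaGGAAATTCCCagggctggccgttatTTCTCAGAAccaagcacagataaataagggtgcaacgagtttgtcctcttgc
Gbp2: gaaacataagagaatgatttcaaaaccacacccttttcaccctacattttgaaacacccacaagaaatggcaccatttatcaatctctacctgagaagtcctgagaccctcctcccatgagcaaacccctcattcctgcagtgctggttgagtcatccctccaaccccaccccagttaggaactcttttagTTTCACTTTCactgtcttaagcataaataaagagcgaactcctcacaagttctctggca
Cxcl10: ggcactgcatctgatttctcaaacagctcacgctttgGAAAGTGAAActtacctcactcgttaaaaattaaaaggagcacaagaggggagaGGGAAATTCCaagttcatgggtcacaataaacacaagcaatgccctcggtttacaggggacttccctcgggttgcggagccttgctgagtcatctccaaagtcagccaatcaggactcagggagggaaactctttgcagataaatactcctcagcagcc
Il6: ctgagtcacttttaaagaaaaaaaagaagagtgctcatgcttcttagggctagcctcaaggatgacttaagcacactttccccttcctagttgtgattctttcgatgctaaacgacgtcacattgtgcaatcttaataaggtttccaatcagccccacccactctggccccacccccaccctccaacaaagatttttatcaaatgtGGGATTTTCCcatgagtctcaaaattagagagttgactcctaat
The corresponding stretches of *Cxcl9* and *Il12b*, the genes with larger rises, held none of these exact letters.

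Components of interferon and cytokine signalling rose as well. 23 of 27 genes for JAKs, STATs, interferon regulatory factors and SOCS proteins rose and 2 fell (median 2.08; without PBS 3, 23 and 4). The largest changes were in feedback inhibitors of JAK-STAT signalling: *Cish* had 5.82, 5.04 and 2.34 normalized counts in PBS and 11078, 11335 and 11422 in LPS/IFNγ, *Socs3* had 93.1, 75.7 and 67.9 normalized counts in PBS and 87767, 89570.0 and 87898 in LPS/IFNγ and *Socs1* had 75.0, 46.7 and 56.2 normalized counts in PBS and 21179, 19922 and 21104 in LPS/IFNγ. *Irf7*, which amplifies interferon production, rose by 5.86 ± 0.20, and *Irf1* and *Irf8* rose by 4.91 ± 0.13 and 4.95 ± 0.06. Neither receptor chain of IFNγ was called higher. *Ifngr1* had a Log2FoldChange of -0.08 ± 0.10 (edgeR adjusted p = 0.46; without PBS 3, -0.21 and 0.00014), and *Ifngr2* fell slightly (-0.32, edgeR adjusted p = 0.0017).

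Genes of antigen presentation moved to different extents. Class I molecules show peptides from inside the cell, and 16 of 21 genes for them and their peptide supply rose while 2 fell (without PBS 3, 19 and 2). *Tap1*, a subunit of the peptide transporter, rose from 1903, 1835 and 2325 to 86213, 85141 and 87747 (Log2FoldChange 5.42 ± 0.10 (SE), edgeR adjusted p = 4e-13), and *Nlrc5*, the transactivator of class I genes, rose by 4.70 ± 0.20. *H2-Q6* and *H2-Q7*, close copies of each other, rose by 3.65 ± 0.15 and 3.43 ± 0.50. Of 10 class II genes 4 rose (median 0.49), and without PBS 3 7 did (median 0.70). A further gene of the pathway, *Ifi30*, a lysosomal thiol reductase that the annotation holds to be a processed transcript, had -1.36 (edgeR adjusted p = 0.00036). The class II transactivator *Ciita* rose from 1929, 1979 and 842 to 17872, 18186 and 17663 (Log2FoldChange 3.50 ± 0.25 (SE), edgeR adjusted p = 1.4e-07), while *H2-Aa*, which it controls, had 30244, 29063 and 31406 normalized counts in PBS and 42129.7, 40139 and 42370.2 in LPS/IFNγ and a Log2FoldChange of 0.46 ± 0.08 (edgeR adjusted p = 0.00068). *H2-Ab1* had 0.10 ± 0.25 (edgeR adjusted p = 0.71), or 0.57 without PBS 3 (adjusted p = 2.6e-06).

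Costimulatory ligands give T cells their second signal. Of 16 costimulatory and checkpoint ligands 14 rose and 2 fell, with and without PBS 3 (median 5.45, or 5.12 with 2 members at their lower bound). *Cd40* went from 45.3, 39.7 and 105 to 242522, 235078 and 242769 (Log2FoldChange 11.92 ± 0.30 (SE), edgeR adjusted p = 3e-11). *Tnfsf4*, the OX40 ligand, had 1.94, 5.04 and 0 normalized counts in PBS and 7924, 8244 and 8911 in LPS/IFNγ, and *Tnfsf9*, the 4-1BB ligand, rose by 6.85 ± 0.16. *Slamf1*, a receptor that also takes up bacteria, was at 0, 0 and 0 in PBS and 288, 250.5 and 222 in LPS/IFNγ, at least 335-fold higher. The 2 that fell were the inhibitory molecules *Vsir* (-1.43) and *Havcr2* (-1.96), and *Cd274*, which encodes the checkpoint ligand PD-L1, rose by 4.79 ± 0.17.

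NF-κB genes rose together with their inhibitors. Of 19 genes for NF-κB subunits and feedback inhibitors 17 rose and 1 (*Irak3*) fell, with and without PBS 3 (medians 3.81 and 3.89). *Nfkbie*, which encodes an inhibitor of NF-κB, went from 431, 457 and 526 to 42730.0, 42337 and 44252 normalized counts, *Nfkbiz* rose by 6.64 ± 0.22, *Tnfaip3*, the ubiquitin-editing enzyme A20, by 5.46 ± 0.23, and the subunit gene *Nfkb2* by 4.60 ± 0.07. Of 22 Toll-like and NOD receptors and adaptors 13 rose and 5 fell (without PBS 3, 14 and 6). *Nod1* and *Nod2*, sensors of bacterial cell wall, rose by 5.24 ± 0.19 and 4.49 ± 0.21, *Tlr3*, a sensor of double-stranded RNA, by 3.37 ± 0.21, and *Tlr13*, a sensor of bacterial ribosomal RNA, fell from 17813, 19212 and 10525 to 1118, 1213 and 1183 (Log2FoldChange -3.76 ± 0.19 (SE), edgeR adjusted p = 4.2e-09). *Tlr4*, the receptor of LPS itself, fell (Log2FoldChange -0.70 ± 0.28 (SE), edgeR adjusted p = 0.032), a call that did not hold without PBS 1, PBS 2 or any 1 LPS/IFNγ library (-0.44 to -0.72, edgeR adjusted p = 0.066 to 0.155).

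Of 23 inflammasome and cell death genes 16 rose and 4 fell (without PBS 3, 17 and 5). *Nlrp3*, the sensor that activates caspase-1, went from 523, 553 and 299 to 34404, 35205 and 34162 (Log2FoldChange 6.23 ± 0.18 (SE), edgeR adjusted p = 8.4e-11). *Casp4*, the caspase that binds intracellular LPS, *Mlkl*, the executor of necroptosis, and the death receptor gene *Fas* rose by 4.04 ± 0.14, 5.23 ± 0.08 and 4.15 ± 0.24. The 4 that fell included *Nlrc4* (-2.43) and *Nlrp1b* (-1.75), which encode other inflammasome sensors.

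**Figure D4:**
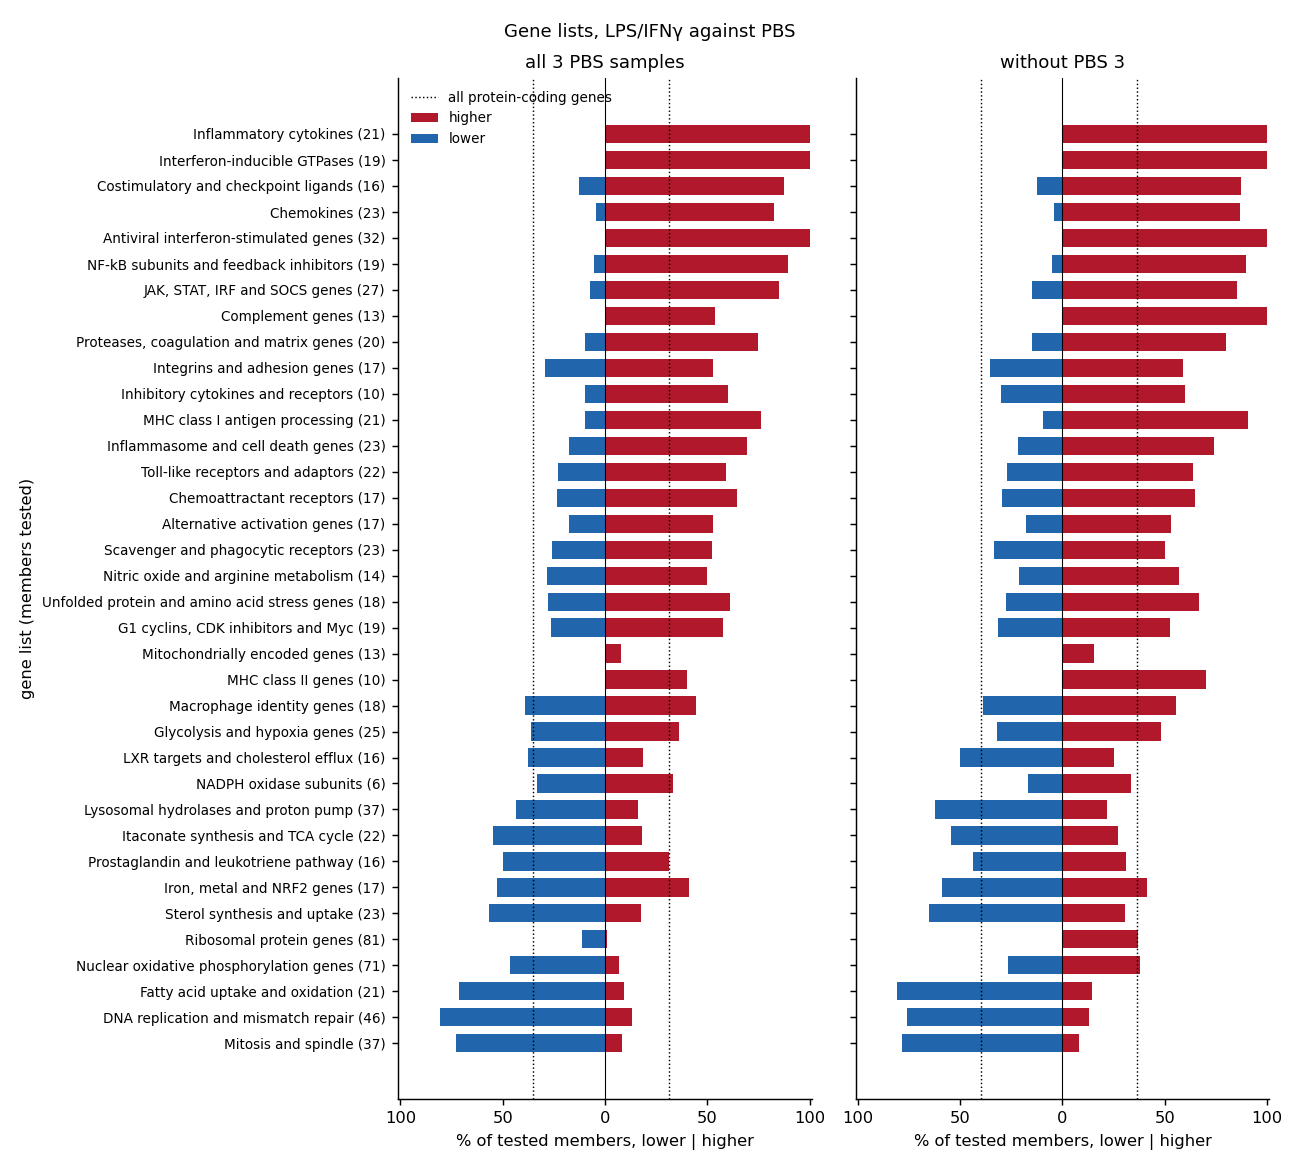
Share of tested members called higher (red, right) and lower (blue, left) in LPS/IFNγ than in PBS for the gene lists that are not markers of other cell types, ordered by median Log2FoldChange, with all 3 PBS samples (left panel) and without PBS 3 (right panel). Dotted lines give the shares over all protein-coding genes, 31.5% and 35.3% on the left and 36.2% and 39.9% on the right. Ribosomal protein genes and oxidative phosphorylation genes change between the panels, and the first 3 lists do not.

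In metabolism, single enzymes and transporters had the large changes. Besides *Nos2*, the arginine transporter gene *Slc7a2* went from 1120.4, 1148 and 566 to 60389, 61283 and 60026 (edgeR adjusted p = 4.1e-10), and *Slc7a1* and *Arg2* rose by 3.83 ± 0.25 and 4.56 ± 0.29. *Arg1*, whose product competes with NOS2 for arginine, had 14.9, 9.46 and 0 normalized counts in PBS and 14.8, 16.8 and 26.5 in LPS/IFNγ (Log2FoldChange 1.20 ± 0.78 (SE), edgeR adjusted p = 0.23). Of the 14 genes of nitric oxide and arginine metabolism 7 rose and 4 fell (without PBS 3, 8 and 3). *Acod1*, the enzyme that diverts *cis*-aconitate from the TCA cycle to itaconate, went from 107, 184 and 97.2 to 362778, 362378 and 373367 (Log2FoldChange 11.46 ± 0.23 (SE), edgeR adjusted p = 9.2e-12). Among 22 genes of itaconate synthesis and the TCA cycle 4 rose and 12 fell (without PBS 3, 6 and 12). *Idh1*, the cytosolic isocitrate dehydrogenase, fell from 19683, 19954 and 22755 to 2309.8, 2419 and 2548 (Log2FoldChange -3.10 ± 0.08 (SE), edgeR adjusted p = 5.8e-12). *Sdhb* and *Fh1*, which act after succinate, had Log2FoldChanges of -1.32 and -1.26, or -0.60 and -0.78 without PBS 3, which held more of both messages than PBS 1 and 2 did.

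Of the glycolysis genes, 9 of 25 were higher and 9 lower (without PBS 3, 12 and 8). Both shares were near those over all protein-coding genes (31.5% and 35.3%). *Slc2a6*, a lysosomal hexose transporter, went from 752, 721 and 705 to 58176, 54597 and 59033, and *Hk2*, *Pfkp* and *Hif1a* rose by 3.79 ± 0.15, 4.06 ± 0.10 and 3.66 ± 0.33. *Gapdh*, from the middle of the pathway, had a Log2FoldChange of 0.16 ± 0.15 (edgeR adjusted p = 0.39). Genes of amino acid synthesis and stress rose in 11 of 18 cases and fell in 5 (without PBS 3, 12 and 5). *Chac1*, which degrades glutathione, *Mthfd2* of mitochondrial folate metabolism, *Trib3* and *Asns*, targets of ATF4, rose by 6.41 ± 0.23, 3.71 ± 0.09, 3.69 ± 0.17 and 3.59 ± 0.15, whereas chaperone genes of the endoplasmic reticulum such as *Sdf2l1* (-1.28) and *Pdia4* (-1.10) fell and *Hspa5* (0.77) rose.

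The sign of the median of 2 large lists depended on PBS 3. Of 71 nuclear genes of oxidative phosphorylation, 5 rose and 33 fell with all PBS libraries (median -0.80), and 27 rose and 19 fell without PBS 3 (median 0.05). *Atp5e*, a subunit of ATP synthase, had 2613, 2285 and 21836 normalized counts in PBS and 2464, 2220.4 and 2455 in LPS/IFNγ. PBS 3 alone thus lay above the LPS/IFNγ samples, and the Log2FoldChange of -1.90 ± 0.60 (edgeR adjusted p = 0.018) became -0.05 (adjusted p = 0.41). *Cycs*, which encodes cytochrome *c*, rose in either case (1.74 and 2.28), and *Ndufb10* fell in either case (-1.68 and -0.61). For *Ndufa2* the sign turned from -1.62 to 0.15. Of 81 ribosomal protein genes 1 rose and 9 fell with all PBS libraries (median -0.79), and 30 rose and 0 fell without PBS 3 (median 0.25). *Rpl41* had 12881, 10559.8 and 81549 normalized counts in PBS and 11080.5, 11574 and 12645 in LPS/IFNγ, and *Rpl37a* turned from -1.56 to 0.24. The sign of both list medians thus rested on PBS 3. Over all protein-coding genes 31.5% rose and 35.3% fell with PBS 3, and 36.2% and 39.9% without it. Without PBS 3 the share of rises in both lists was close to that over all protein-coding genes, and the share of falls was lower. With PBS 3 the share of falls was above that of all protein-coding genes for oxidative phosphorylation and below it for ribosomal protein genes. Of 13 genes encoded by mitochondrial DNA, 1 rose, *mt-Co3* (0.89; 0.83 and edgeR adjusted p = 0.0626 without LPS/IFNγ 3), and 0 fell. Without PBS 3, 2 rose, *mt-Co3* and *mt-Co1* (0.47, adjusted p = 0.0215), and 0 fell. Genes of mitochondrial DNA held 0.229% of all counts in PBS 3 and 0.775% and 0.819% in PBS 1 and 2.

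Most genes of DNA replication and mitosis fell. Of 46 genes of DNA replication and mismatch repair 37 fell and 6 rose (median -1.22; without PBS 3, 35 and 6, median -1.18). The mismatch repair gene *Msh6*, the polymerase gene *Pold1* and the replisome gene *Gins1* changed by -2.29 ± 0.13, -2.45 ± 0.14 and -2.27 ± 0.36. Of 37 genes of mitosis 27 fell and 3 rose (median -1.49; without PBS 3, 29 and 3, median -1.51). *Kif23*, a motor of cytokinesis, fell from 716, 810.4 and 462 to 29.7, 62.1 and 58.5 and *Aurkb*, a mitotic kinase, from 205, 229 and 184 to 22.3, 28.4 and 21.9. Against these, *Mki67*, the gene of the proliferation antigen Ki-67, had 934, 1099.8 and 585 normalized counts in PBS and 12143, 13087 and 12059 in LPS/IFNγ (Log2FoldChange 3.83 ± 0.21 (SE), edgeR adjusted p = 9.4e-09), and *Tpx2*, a spindle assembly factor, had 497, 477 and 327 normalized counts in PBS and 3605, 3826 and 3663 in LPS/IFNγ (Log2FoldChange 3.08 ± 0.14 (SE), edgeR adjusted p = 2.1e-09). The third member that rose was *Nusap1* (0.86).

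Regulators of entry into the cycle moved in both directions, 11 of 19 up and 5 down (without PBS 3, 10 and 6). *Cdkn1a*, which encodes the CDK inhibitor p21, went from 5785, 5645 and 6669 to 225708, 223086 and 234600.0 (Log2FoldChange 5.24 ± 0.08 (SE), edgeR adjusted p = 1.8e-13). The G1 cyclin gene *Ccnd2* went from 220.5, 224 and 77.3 to 18464, 18073 and 18122 and its kinase *Cdk6* from 2105, 2171 and 1168 to 16904, 17324 and 17225. *E2f2*, a transcription factor of S phase genes, fell from 432, 475 and 445 to 36.1, 30.5 and 25.6 (Log2FoldChange -3.88 ± 0.19 (SE), edgeR adjusted p = 2.2e-09).

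Genes of fatty acid oxidation and sterol synthesis were more often lower than higher. Of 21 genes of fatty acid uptake and oxidation 15 fell and 2 rose (median -0.92; without PBS 3, 17 and 3, median -0.64). *Pparg*, the nuclear receptor that drives lipid storage genes, fell from 4327, 4276 and 5473 to 329, 434 and 390.3 (Log2FoldChange -3.61 ± 0.13 (SE), edgeR adjusted p = 3e-11). *Fabp4*, one of its targets, had 13277, 13531 and 48159 normalized counts in PBS and 5614, 5720.5 and 5735 in LPS/IFNγ, a Log2FoldChange of -2.13 with and -1.25 without PBS 3, and *Etfb* moved from -2.32 to -0.64 in the same way. *Ppargc1b*, a coactivator of mitochondrial genes, rose from 196, 172 and 138 to 1977, 1937 and 1943 (Log2FoldChange 3.52 ± 0.17 (SE), edgeR adjusted p = 2.8e-09). Of 23 genes of sterol synthesis and uptake 13 fell and 4 rose (without PBS 3, 15 and 7). The biosynthetic enzymes *Dhcr7*, *Lss* and *Mvk* changed by -2.16 ± 0.20, -1.87 ± 0.16 and -1.63 ± 0.29. Of 16 LXR and cholesterol efflux genes 3 rose and 6 fell (without PBS 3, 4 and 8), a share of falls close to the 35.3% of all protein-coding genes. Those that fell included *Nr1h3*, which encodes LXRα (-1.43 ± 0.15), *Scd2* (-3.01 ± 0.19), *Soat1* (-1.59 ± 0.08) and *Nceh1* (-1.37 ± 0.11). The efflux transporter gene *Abca1* had 0.02 ± 0.49 (edgeR adjusted p = 0.96).

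Uptake receptors and lysosomal genes differed from each other. Of 23 scavenger and phagocytic receptors 12 rose and 6 fell (without PBS 3, 12 and 8). *Olr1*, the receptor LOX-1 for oxidised LDL, went from 11.0, 12.6 and 2.34 to 14542, 16031 and 15662 (Log2FoldChange 10.63 ± 0.25 (SE), edgeR adjusted p = 2.5e-11). *Clec4e*, a receptor for mycobacterial glycolipid, *Timd4*, a receptor for phosphatidylserine, and *Fcgr4* rose by 6.57 ± 0.15, 4.37 ± 0.37 and 3.61 ± 0.17. Of 37 lysosomal genes 16 fell and 6 rose (without PBS 3, 23 and 8), beside 35.3% lower and 31.5% higher over all protein-coding genes. *Tfeb*, the transcription factor of lysosomal genes, fell from 6216, 5831 and 10899.6 to 697, 739.8 and 725 (Log2FoldChange -3.41 ± 0.21 (SE), edgeR adjusted p = 4.2e-09), and its relative *Mitf* rose by 1.48 ± 0.21. *Ctsd*, cathepsin D, had 509597, 477887 and 1507911 normalized counts in PBS and 262130.0, 256455 and 264974 in LPS/IFNγ, a Log2FoldChange of -1.67 that was -0.93 without PBS 3, and *Ctsc* rose by 3.37 ± 0.18.

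Among secreted and surface products outside cytokines, *Ptgs2*, the inducible cyclooxygenase, went from 102, 83.9 and 36.3 to 159266, 170729 and 165575 (Log2FoldChange 11.09 ± 0.27 (SE), edgeR adjusted p = 5.7e-11). The prostaglandin and leukotriene list as a whole had 5 of 16 higher and 8 lower (without PBS 3, 5 and 7). Its share of rises was close to the 31.5% of all protein-coding genes. *Ptger4* and *Pla2g4a* rose (3.44 ± 0.08 and 2.50 ± 0.29) and *Hpgd*, which degrades prostaglandins, fell (-1.85 ± 0.09). Of 20 protease, coagulation and matrix genes 15 rose and 2 fell (without PBS 3, 16 and 3). *Mmp13*, a collagenase, went from 593, 651 and 774 to 134688, 132708 and 137348, and *Mmp25*, *Serpinb2* and *F3*, the tissue factor gene, rose by 9.78 ± 0.39, 6.67 ± 0.40 and 5.65 ± 0.17. *Icam1*, the ligand of leukocyte integrins, reached 462665, 459771 and 476267 from 2327, 2478 and 875 (Log2FoldChange 7.94 ± 0.28 (SE), edgeR adjusted p = 7.4e-10), and the integrin genes *Itgb8*, *Itga4* and *Itgal* rose by 5.20 ± 0.34, 4.52 ± 0.35 and 3.20 ± 0.28; of 17 adhesion genes 9 rose and 5 fell (without PBS 3, 10 and 6). Of 13 complement genes 7 rose and 0 fell, and all 13 rose without PBS 3. *C3* went from 1356, 1235 and 819 to 106132, 101415 and 99316, and *C1ra*, *C1s1* and *Serping1* rose by 4.11 ± 0.12, 3.94 ± 0.45 and 3.37 ± 0.13.

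Iron genes moved in both directions. *Hamp*, which encodes the iron hormone hepcidin, had 0.646, 1.26 and 2.34 normalized counts in PBS and 748, 762 and 718 in LPS/IFNγ (ratio 591 (95% interval 253 to 1822)), and *Slc40a1*, which encodes ferroportin, the exporter that hepcidin inhibits, fell from 6715, 6984 and 3560.2 to 417, 397 and 404 (Log2FoldChange -3.83 ± 0.23 (SE), edgeR adjusted p = 1.8e-08). *Fth1*, the ferritin heavy chain, had 996756, 922557 and 3605967 normalized counts in PBS and 748779, 715409 and 758635 in LPS/IFNγ, and its Log2FoldChange of -1.31 became -0.38 without PBS 3. *Mt2*, a metallothionein, rose by 4.87 ± 0.47 and *Slc7a11*, the cystine transporter, by 2.62 ± 0.17, whereas *Hmox1*, haem oxygenase, fell (Log2FoldChange -2.11 ± 0.09 (SE), edgeR adjusted p = 1.9e-10). The iron, metal and NRF2 list had 7 of 17 higher and 9 lower (without PBS 3, 7 and 10). Of 6 NADPH oxidase subunits 2 rose, *Cybb* by 2.12 ± 0.21 and *Ncf1* by 1.18 ± 0.10, and 2 fell. One of these was *Ncf4* (-0.32), whose fall did not pass the test without any 1 LPS/IFNγ library (edgeR adjusted p = 0.0511 to 0.0811). Without PBS 3, 2 of the subunits rose and 1 fell.

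Genes that define macrophages moved in both directions. Of 18 macrophage identity genes 8 rose and 7 fell (without PBS 3, 10 and 7), beside 31.5% and 35.3% of all protein-coding genes. Their summed counts were 25316 to 29439 CPM (counts per 1000000) in PBS and 16356 to 16748 in LPS/IFNγ. CPM are shares of all counts of a library. They lack the scaling between libraries behind the Log2FoldChanges, whose median for this list was 0.36. *Cd68* had 83649, 79506 and 65258 normalized counts in PBS and 77015, 79255 and 82225 in LPS/IFNγ (Log2FoldChange 0.06 ± 0.09 (SE), edgeR adjusted p = 0.82). *Csf1r*, the receptor of M-CSF, had 136131, 135623 and 92213 normalized counts in PBS and 90180.4, 90468 and 92507 in LPS/IFNγ (Log2FoldChange -0.41 ± 0.13 (SE), edgeR adjusted p = 0.015), and PBS 3 lay within the LPS/IFNγ range. Without PBS 1 or PBS 2 that fall did not pass the test (-0.32 in both cases, edgeR adjusted p = 0.0709 and 0.0671). *Cebpa*, a transcription factor of myeloid cells, fell from 17627, 16504 and 21433 to 668, 657 and 727 (Log2FoldChange -4.76 ± 0.11 (SE), edgeR adjusted p = 6.7e-13), while *Spi1*, which encodes PU.1, and *Maf* rose by 1.22 ± 0.16 and 1.89 ± 0.14. *Mertk*, a receptor for apoptotic cells, rose by 3.03 ± 0.34. Of 17 genes linked to alternative (M2) activation 9 rose and 3 fell, with and without PBS 3, the rises including *Ccl24* (ratio 507 (95% interval 217 to 1563)) and *Tgm2* (4.59 ± 0.08).

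Markers of other cell types had summed counts far below those of the macrophage genes in both groups. The 11 neutrophil genes summed to 2.16 to 5.85 CPM in PBS and 2.01 to 2.67 in LPS/IFNγ, with *Ly6g* and *Mpo* at 0. The 9 T cell and NK cell genes summed to 0.517 to 0.730 CPM in PBS and 169 to 182 in LPS/IFNγ. That rise was of *Lck*, a kinase of T cell receptor signalling (15.5, 13.9 and 11.7 normalized counts in PBS and 12745, 12334 and 13460.5 in LPS/IFNγ), while *Cd3d*, *Cd3e*, *Cd3g*, *Cd8a*, *Nkg7* and *Ncr1* were at 0 in all 6 libraries. The 7 B cell genes summed to 39.3 to 42.6 and 8.24 to 11.3 CPM, mainly *Ighm*, the 8 dendritic cell genes to 4.53 to 6.03 and 16.0 to 16.8, and the 5 endothelial genes to 12.1 to 31.1 and 99.0 to 104, mainly *Kdr* (2.89 ± 0.23). The 9 fibroblast genes were at 304 and 319.7 CPM in PBS 1 and 2, 165 in PBS 3 and 253 to 259 in LPS/IFNγ. These CPM are unscaled shares of each library. In the test, which scales the libraries, 5 of 8 rose and 0 fell (without PBS 3, 6 and 1), *Col1a1* among the rises (0.75 ± 0.21). The 5 mast cell genes summed to 2.81 to 8.25 and 1.68 to 1.72 CPM, and erythroid and megakaryocyte genes stayed under 1 CPM. In bulk RNA, fewer cells of a type and less RNA per cell cannot be told apart.

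Scaled to exon length (normalized counts per kilobase, as a share of 1000000 over all genes tested), the most abundant protein-coding messages after stimulation were in part those of resting macrophages. *B2m*, *Apoe*, *Psap*, *Ctss*, *Fth1*, *Lgals3* and *Lyz2* were among the 10 highest in both groups. *Gbp2* entered at 12615 ± 115 (mean ± SD, n = 3) from 32.7 ± 14.3 in PBS, and *Ccl5*, a chemokine of T cells and monocytes, at 9657 ± 372 from 12.3 ± 3.49. *Actb* completed the list at 7989 ± 203 from 3136 ± 85.6. *B2m*, the light chain of class I molecules, was at 13848 ± 212 in LPS/IFNγ and 7933 ± 189.5 in PBS, and *Apoe* at 13195 ± 202 and 26265 ± 5437. The SD in PBS contains the departure of PBS 3. *Gpnmb*, *Ctsb* and *Ctsd* were in the PBS list only.

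The series also held LPS without IFNγ, and LPS/IFNγ was compared with it directly. By the protocol text the LPS samples received a higher concentration of LPS, so the effect of IFNγ and that of the LPS dose cannot be told apart. LPS and LPS/IFNγ libraries resembled each other (r = 0.968 to 0.970; between PBS and LPS/IFNγ, 0.784 to 0.841). In the direct contrast 1614 protein-coding genes were higher in LPS/IFNγ (12.4%) and 1435 lower (11.0%), the median Log2FoldChange being -0.06. All groups, PBS 3 included, shared one estimate of the spread in this fit. Without PBS 3 the counts were 2841 and 3931, and what made them differ was not tested. Of the 4101 genes above PBS, 1076 were also above LPS, 466 were below LPS and 2559 were not called, and of the 4601 genes below PBS, 665 were also below LPS, 237 above it and 3699 not called.

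Among the interferon-inducible GTPases 11 of 19 were higher than with LPS and 0 lower (median 0.78; without PBS 3, 16 and 1). *Cxcl9* had 33473, 33611 and 30592 normalized counts in the LPS samples, against 464495, 448815 and 471211 in LPS/IFNγ (Log2FoldChange 3.83 ± 0.10 (SE), edgeR adjusted p = 5.2e-06), and *Serpina3f* had 4775, 5013 and 4442 (Log2FoldChange 2.19 ± 0.09 (SE), edgeR adjusted p = 6.1e-06). *Gbp4* and *Iigp1* were higher by 2.63 and 2.90, *Nos2* by 1.32, *Ciita* by 1.98 and *Il1rn* by 1.69 on the log2 scale (edgeR adjusted p = 0.00044, 3.1e-06, 0.0066, 7.8e-05 and 9.6e-06). *Il12b* had 73677, 79773 and 78215 in LPS, again below every LPS/IFNγ value (edgeR adjusted p = 0.0025). The 5 largest excesses over LPS were in *Lrrtm2* (321, 281 and 335 normalized counts against 2.59, 0 and 2.94), *Crabp2* (6.29), a retinoic acid carrier, *Nanos1* (5.95), *Cd207* (5.38), known as langerin, and *Ccr2* (5.10), a monocyte chemokine receptor. *Ccr2* had 10.3, 20.9 and 16.2 in LPS, 139.6, 159.5 and 164 in PBS and 533, 496 and 579 in LPS/IFNγ, so that PBS lay between the stimulations.

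Some cytokine, chemokine and antiviral genes were lower than with LPS. Of the 21 inflammatory cytokines 11 were lower and 4 higher (without PBS 3, 13 and 5), of the 23 chemokines 10 and 5 (without PBS 3, 14 and 5), and of the 32 antiviral genes 12 and 2 (without PBS 3, 19 and 3). *Il23a*, whose product joins p40 to form interleukin-23, had 3727, 3719.8 and 4259.8 normalized counts in LPS and 50.9, 48.4 and 52.1 in LPS/IFNγ (Log2FoldChange -6.27 ± 0.23 (SE), edgeR adjusted p = 6.2e-08). *Ccl17*, a ligand of CCR4, had 439.5, 469 and 471 in LPS and 4.24, 2.10 and 0 in LPS/IFNγ (Log2FoldChange -7.83 ± 0.65 (SE), edgeR adjusted p = 2.1e-06). *Csf2*, which encodes GM-CSF, *Cxcl3*, a neutrophil chemokine, and *Shisa3* had Log2FoldChanges of -4.38, -3.94 and -3.87 over LPS, and these 5 were the largest deficits. *Il10* had 2529.8, 2122 and 1945 in LPS (Log2FoldChange -2.61 ± 0.28 (SE), edgeR adjusted p = 2.3e-05), *Il6* had 53215, 50323 and 49125 (Log2FoldChange -1.14 ± 0.21 (SE), edgeR adjusted p = 0.018; 0.0508 to 0.0548 without LPS 1 or any 1 LPS/IFNγ library), and *Il1b* was lower as well (-2.89, edgeR adjusted p = 6.9e-08). *Il27*, *Lad1* and *Socs3* did not pass the test in this contrast (0.09, -0.01 and -0.25). With PBS 3 left out of the fit, 72 of the ribosomal protein genes and 51 of the oxidative phosphorylation genes were called lower than in LPS, against 9 and 4 with it (medians with it -0.60 and -0.35).

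**Figure D5:**
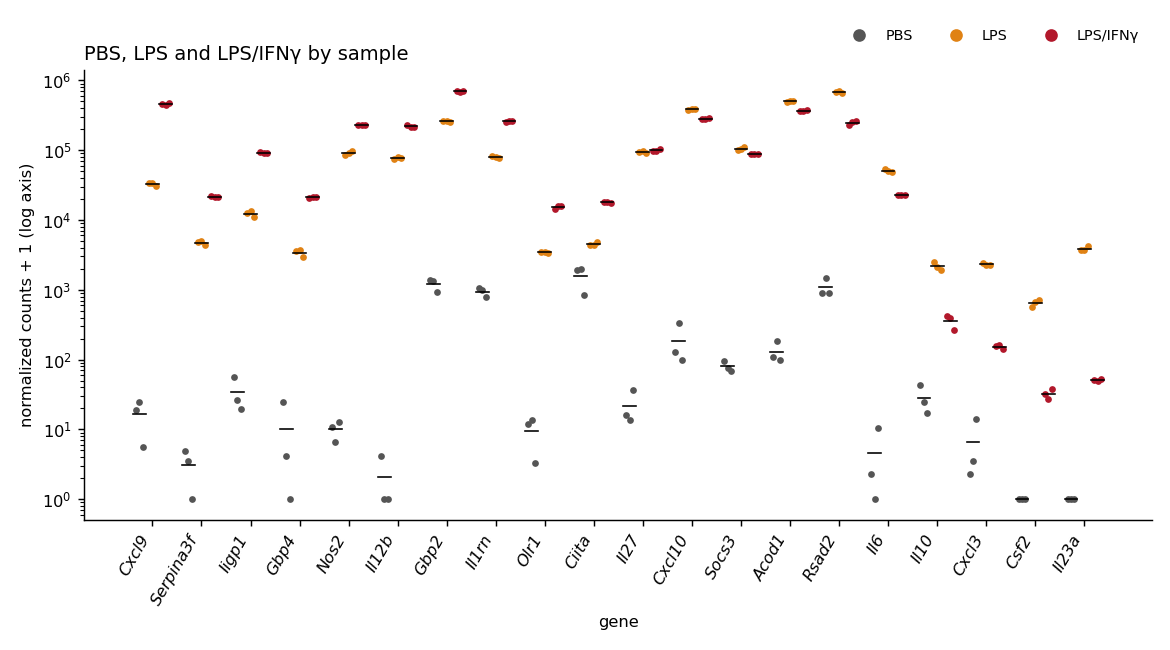
Normalized counts + 1 (log y axis) in each PBS (grey), LPS (orange) and LPS/IFNγ (red) sample for the genes named on the axis, with group means as bars. Genes from *Cxcl9* to *Ciita* are higher in LPS/IFNγ than in LPS, those from *Rsad2* to *Il23a* are lower, and the order ends with *Il23a*, at 48.4 to 52.1 in LPS/IFNγ.

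Several genes that the study had singled out from these samples are given as values, their choice not being independent of them. The study measured *Ikzf4*, *Ccr7*, *Cnr2*, *Lrrc17*, *Il12b*, *Cxcl9*, *Hamp* and *Il33* again by qPCR in macrophages of individual mice. For these genes it reported patterns similar to those of the sequencing. It also reported qPCR results that differed from the sequencing, for *Rasgrf1* and *Madcam1* in the LPS group. The same was reported for the foam cell genes *Lpl*, *Pf4*, *Nr1h3* and *Abca1*, where it described HMGB1-treated cells. *Ikzf4*, a transcription factor of the Ikaros family, had 5.17, 2.52 and 1.17 normalized counts in PBS and 233, 202 and 239 in LPS/IFNγ and 25.9, 26.9 and 42.6 in LPS (Log2FoldChange 6.12 ± 0.47 (SE), edgeR adjusted p = 9.2e-07 against PBS). *Ccr7*, the receptor that guides cells to lymph nodes, had 0, 0 and 2.34 normalized counts in PBS and 74.2, 86.3 and 73.1 in LPS/IFNγ (ratio 155 (95% interval 42.4 to 1286)). *Cnr2*, the cannabinoid receptor of immune cells, had 3301, 3184 and 1864 normalized counts in PBS and 175, 197 and 203 in LPS/IFNγ (Log2FoldChange -3.86 ± 0.25 (SE), edgeR adjusted p = 2.8e-08). In LPS it was at 10.3, 13.5 and 17.6, below both other groups (Log2FoldChange 3.81 ± 0.37 (SE), edgeR adjusted p = 2.5e-06 for LPS/IFNγ over LPS). *Lrrc17*, a secreted leucine-rich protein, had 33.6, 25.9 and 65.6 normalized counts in PBS and 0, 0 and 0 in LPS/IFNγ, at least 37-fold lower than in PBS by the floor of 3 counts over the LPS/IFNγ libraries.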

How the data were processed

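Stranded mRNA libraries made from 200 ng of RNA were sequenced by the authors on a NextSeq 2000, base-called with CASAVA and aligned to GRCm38 with STAR. Which program counted reads per gene, and with which annotation, is not given in the sources used here. The deposited values were raw counts per gene, without normalization or filter, for 15 libraries (40934540 to 80925478 counts each). Intervals cover counting error only. The labels give the groups. Of 51763 gene IDs, 51661 were named from GENCODE M21 and 102 found no match there. The authors themselves compared groups by DESeq2 fold changes with a Log2FoldChange cut-off of 2 and no p.

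Genes were kept by edgeR's filterByExpr (16919 genes), and edgeR 4.0.16 (quasi-likelihood F test, R 4.3.3, TMM normalization) was fitted to all 15 libraries in 5 groups, the 2 groups given HMGB1 included, so that they shared one estimate of the spread. P-values were adjusted by Benjamini-Hochberg over all genes tested. Normalized counts, Log2FoldChanges (unshrunken) and their SE came from DESeq2 1.42.0. The scripts were tested on simulated data with known changes. Where a group had 1 to 10 counts in all, the ratio is given with an exact 95% interval; where it had 0, a lower bound against 3 counts over the group. The genes named were the 10 largest called rises and falls that averaged 100 or more normalized counts without overlap, up to 4 leading members of each list, genes the study singled out, the 10 highest levels per length, the 5 largest differences from LPS in each direction, and cell type markers. The following were named after their values were seen: *Tnf*, *Il1b*, *Ifnb1*, *Cxcl14*, *Irf1*, *Irf8*, *Ifngr1*, *Ifngr2*, *Ifi30*, *H2-Ab1*, *Vsir*, *Havcr2*, *Cd274*, *Irak3*, *Tlr4*, *Nlrc4*, *Nlrp1b*, *Arg1*, *Gapdh*, *Sdf2l1*, *Pdia4*, *Hspa5*, *Nusap1*, *Abca1*, *Hmox1* and the further genes with 0 counts in PBS. Some genes that the rule names are not reported here. The comparison and all 45 gene lists were chosen with earlier results of these data known. Alternatives were DESeq2's test, other normalization and filters, a threshold test, other sets of libraries, a replicate block and each replicate left out.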

Additional observations from a re-analysis of the deposited data

How the results depend on the processing

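All wells came from one pool of cells, so no p covers variation between mice, and the LPS concentration given with IFNγ is recorded in 2 ways. With 2186 and 1974 genes above and below PBS, and 314 and 154 above and below LPS, a test of a fold change above 2 called fewer genes, by its construction. A Log2FoldChange cut-off of 1 in place of 2 gave 3066 and 3290 genes. Against LPS, 3261 and 4166 genes were called when the 6 libraries of that contrast were fitted alone and 2841 and 3931 without PBS replicate 3. PBS 3 was absent from both fits, and what raised the counts was not tested. Against PBS, the other settings kept both counts within 1.5 times: DESeq2 4392 and 4674, RLE scaling 4226 and 4495, no filter 4256 and 4010, at least 1 CPM in 3 libraries 3800 and 4374, protein-coding genes alone 4207 and 4683, the 6 libraries alone 3462 and 3083, and, chosen after the data were seen, protein-coding genes alone without PBS 3, 4985 and 5162. Leaving out each replicate gave 3796 to 4783 genes above and 4129 to 5267 below PBS, 1077 to 2841 above and 1181 to 3931 below LPS, and 1578 to 1735 above 2 and 1160 to 1314 below -2. With a replicate block the counts were 4110 and 4404 against PBS and 1496 and 1316 against LPS. Same-numbered PBS and LPS/IFNγ samples deviated with correlations of -0.10, 0.16 and 0.05, and LPS and LPS/IFNγ samples with 0.04, 0.05 and 0.01. Differently numbered samples had -0.16 to 0.15 with PBS and -0.045 to 0.002 with LPS. Whether the numbers pair the samples cannot be told from these values, since PBS 3 stood apart from the other PBS libraries and all the correlations were small. Signs turned without PBS 3 for *Ndufa2* (0.15, and 0.17 with protein-coding genes alone; -2.07 without PBS 2) and *Rpl37a* (0.24 and 0.26; -2.004 without PBS 2), and for *Rpl41* with protein-coding genes alone (0.017); the cause was not tested. Leaving out 1 library ended calls that included those of *Atp5e*, *Ndufa2*, *Rpl36al*, *Rpl41*, *Rpl37a*, *Rpl21*, *Ncf4*, *Apoe*, *mt-Co3*, *Tlr4*, *Cd79b*, *Clec9a* and *Itga2b* (an LPS/IFNγ library), of *Csf1r*, *Tlr4*, *Cd79b* and *Clec9a* (PBS 1 or 2) and of *Atp5e*, *Rpl36al*, *Rpl41*, *Rpl21*, *Itga2b* and *Apoe* (PBS 3), and, against LPS, of *Il6* (LPS 1 or an LPS/IFNγ library). Among named genes, 163 of the alternative values fell short of the threshold that the reported value passed, and 38 passed one that it did not. Values of ribosomal protein, oxidative phosphorylation and other short genes are limited by the departure of PBS 3, and so are those of long genes. Among the 1054 genes of 10000 bases or more, the median Log2FoldChange was 0.48 with PBS 3 and 0.23 without it. The share of them called lower was 22.8% and 36.1%. PBS 3 also had the fewest counts of the 6 libraries (45497806). The 3 libraries given fully reduced HMGB1 had 40934540 to 42770651. The part of depth in the departure of PBS 3 was not tested.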
